A study of Mus musculus with 8 samples.

Results

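Transport and endocytosis along the nephron were examined in mesonephric tubules through 45 mouse genes, which encode solute carriers, ion channels, water channels, proton pump subunits and endocytic receptors of the adult kidney tubule. The genes had been chosen by name and sorted by the adult segment in which each is best known: 4 receptors and adaptors of proximal endocytosis, 19 proximal transporters, 4 other proximal genes, 7 genes of the loop of Henle and distal tubule, 6 of collecting duct principal cells and 5 of intercalated cells. All 45 had at least 1 probe on the array, and 41 passed the filter on dim probes, among 33598 genes and unnamed features tested. The study set tubules of p21-/- embryos, described as not senescent and called labelled p21-null here, against wild-type tubules, which it describes as senescent. There were 3 arrays labelled p21-null and 5 wild-type arrays, each with 1 sample of total RNA in 1 colour on an Agilent array. Both groups were of the C57/BL6 strain, and the tubules were microdissected from stained frozen sections of the embryos. The labels give no embryonic age, no sex and no number of embryos per sample, so a p-value here reflects the spread among these samples alone, which may be technical. The labels name no allele beyond p21-/-.

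The mesonephros is the embryonic kidney that precedes the permanent one, and in mammals most of its tubules are lost or, in males, become efferent ducts of the testis. In the adult nephron the proximal tubule takes back filtered glucose, amino acids, phosphate and protein, the loop and distal tubule take back salt, and the collecting duct sets the final content of water, sodium and acid. Megalin and cubilin are the large receptors that bind filtered proteins at the proximal brush border, amnionless carries cubilin to the membrane, and the adaptor Dab2 links megalin to clathrin-coated pits. Apical carriers coupled to sodium bring solutes into the proximal cell, basolateral carriers such as the glucose transporter Slc2a2 pass them on to the blood, and Slc22a6 and Slc22a8 bring organic anions in from the blood for secretion.

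GTTAAT is a motif found in promoters of many kidney and liver genes. The 250 bases before the transcription start were read for it in every gene of the list with an entry in the RefSeq promoter table (assembly GRCm38.p6), which were 38 of 45. GTTAAT, or its reverse complement ATTAAC, was found before 8 of the 38 (21.1%), against 2023 of 27025 genes in the table (7.49%). The 8 were Dab2, Slc34a1, Slc22a6, Slc22a8, Slc7a7, Umod, Kcnj16 and Atp6v0a4. Genes differ in how many start sites the table lists, and a match describes the letters only. The windows below are of genes to which the results return: 2 with no match whose signal was higher in the arrays labelled p21-null, and 3 with a match, of which Dab2 and Slc22a8 had lower signal. All lie on the plus strand, are written 5′ to 3′ and carry the match in capitals. Whether a match goes with the direction of a difference was not tested.
Slc2a2, chr3:28697653-28697902: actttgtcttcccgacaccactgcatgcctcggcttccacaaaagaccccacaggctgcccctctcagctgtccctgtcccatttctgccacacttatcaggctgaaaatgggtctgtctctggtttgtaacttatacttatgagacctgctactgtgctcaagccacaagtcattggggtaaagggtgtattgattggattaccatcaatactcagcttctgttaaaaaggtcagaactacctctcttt
Slc17a3, chr13:23839184-23839433: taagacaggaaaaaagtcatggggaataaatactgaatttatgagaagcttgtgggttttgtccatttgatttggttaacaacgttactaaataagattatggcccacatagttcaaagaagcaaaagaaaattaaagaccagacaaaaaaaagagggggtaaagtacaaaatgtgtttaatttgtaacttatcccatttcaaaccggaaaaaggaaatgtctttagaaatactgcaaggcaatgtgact
Slc22a8, chr19:8592932-8593181: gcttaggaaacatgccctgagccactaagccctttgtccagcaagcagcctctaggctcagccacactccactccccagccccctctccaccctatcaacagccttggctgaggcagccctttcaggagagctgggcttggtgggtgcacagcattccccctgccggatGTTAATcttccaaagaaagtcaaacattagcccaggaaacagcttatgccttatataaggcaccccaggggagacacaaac
Slc22a6, chr19:8617746-8617995: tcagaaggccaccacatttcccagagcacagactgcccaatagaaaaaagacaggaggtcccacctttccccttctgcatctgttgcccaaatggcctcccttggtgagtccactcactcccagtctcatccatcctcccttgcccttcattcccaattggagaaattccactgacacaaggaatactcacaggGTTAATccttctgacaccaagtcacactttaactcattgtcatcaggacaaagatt
Dab2, chr15:6386498-6386747: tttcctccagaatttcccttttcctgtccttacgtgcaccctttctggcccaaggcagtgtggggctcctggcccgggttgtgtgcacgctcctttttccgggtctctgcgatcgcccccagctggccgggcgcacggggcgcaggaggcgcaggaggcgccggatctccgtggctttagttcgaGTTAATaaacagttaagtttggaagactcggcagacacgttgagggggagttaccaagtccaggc
Counted from the start, the match began at base −81 in Slc22a8, −56 in Slc22a6 and −65 in Dab2, whose other listed start had none. Of 3 further motifs searched on both strands, the palindrome formed by GTTAAT and its reverse complement was before 0 of the 38 genes and 3 of all 27025. CAAAGTCCA, a form of the Hnf4 site, was before Slc3a1 alone among the 38 (2.63%, against 0.451% of all genes). AGATAA, which GATA factors recognise, was before 7 of the 38 (18.4%, against 11.4% of all genes).

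On each array 82.2% to 89.2% of 55681 probes were well above background, no spot was saturated, and correlations between arrays ran from 0.866 to 0.952. Cdkn1a, which encodes p21, had log2 signals of 2.11, 0.96 and 1.40 in the arrays labelled p21-null, against 2.49, 2.52, 0.44, 1.85 and 1.11 in wild type on the brighter of its 2 probes, relative to each array's 75th percentile, the scale of every signal below. The groups overlapped, and the exact permutation test of all 56 splits, two-sided, gave p = 0.768 for this probe and 0.482 for the other. Since the sources used here do not place the probes relative to the deleted part, every direction below rests on the labels. Of 13 listed markers of nephric epithelium, 11 were well above background on all 8 arrays, Pax2 and Cdh16 among them. Their share, 84.6%, was not far from the 78.8% of all named genes, so the count alone does not mark the tissue. The kinase receptor gene Ret reached it on 0 of 3 labelled p21-null and 4 of 5 wild-type arrays. Markers of liver, red cells and macrophages were also present on every array, and their levels are given beside the results concerned. The 3 slides each held both groups, and the mean local background was 38.0 to 44.1 on slide 1, against 91.3 to 135 on the other slides.

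Genes from every adult segment were detected, and most were detected on every array. The brightest probe of 32 of the 45 genes (71.1%) was well above background on all 8 arrays, against 78.8% of 19748 named genes on the array. All 4 endocytic genes, all 4 other proximal genes and all 5 intercalated cell genes were above background on all 8 arrays, as were 10 of 19 proximal transporters, 4 of 7 loop and distal genes and 5 of 6 principal cell genes. Detection on an array says only that a probe stood above its background, and levels of different probes were not compared.

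The clearest gap was in the thick ascending limb of the loop. Slc12a1, the sodium-potassium-chloride carrier that defines that limb, was above background on 0 of 8 arrays, at −8.38, −7.26 and −7.82 in labelled p21-null arrays and −8.47 to −7.94 in wild type. Umod, which encodes uromodulin, the main protein that the same limb secretes, was above background on 1 of 8 arrays, a wild-type one. Of other genes of the loop and distal tubule, the potassium channel Kcnj1 was above background on none, and the calcium-sensing receptor Casr and the calcium-binding protein Calb1 on fewer than 3. Slc12a3, the thiazide-sensitive sodium-chloride carrier of the distal convoluted tubule, was by contrast above background on all 8. Slc22a2, an organic cation carrier, reached it on 2 of 3 labelled p21-null and 0 of 5 wild-type arrays, and Slc17a1, a phosphate and urate carrier, on 0 of 3 labelled p21-null and 2 of 5 wild-type arrays. These last genes, with Slc12a1 and Umod, are the 4 of 45 that were not tested. They are 8.89% of the list, near the 8.04% of 19748 named genes that were above background on fewer than 3 arrays. By class, the share was 28.6% of the 7 loop and distal genes and 10.5% of the 19 proximal transporters. Among 16 further loop and distal genes with a probe it was 18.8%.

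**Figure D1:**
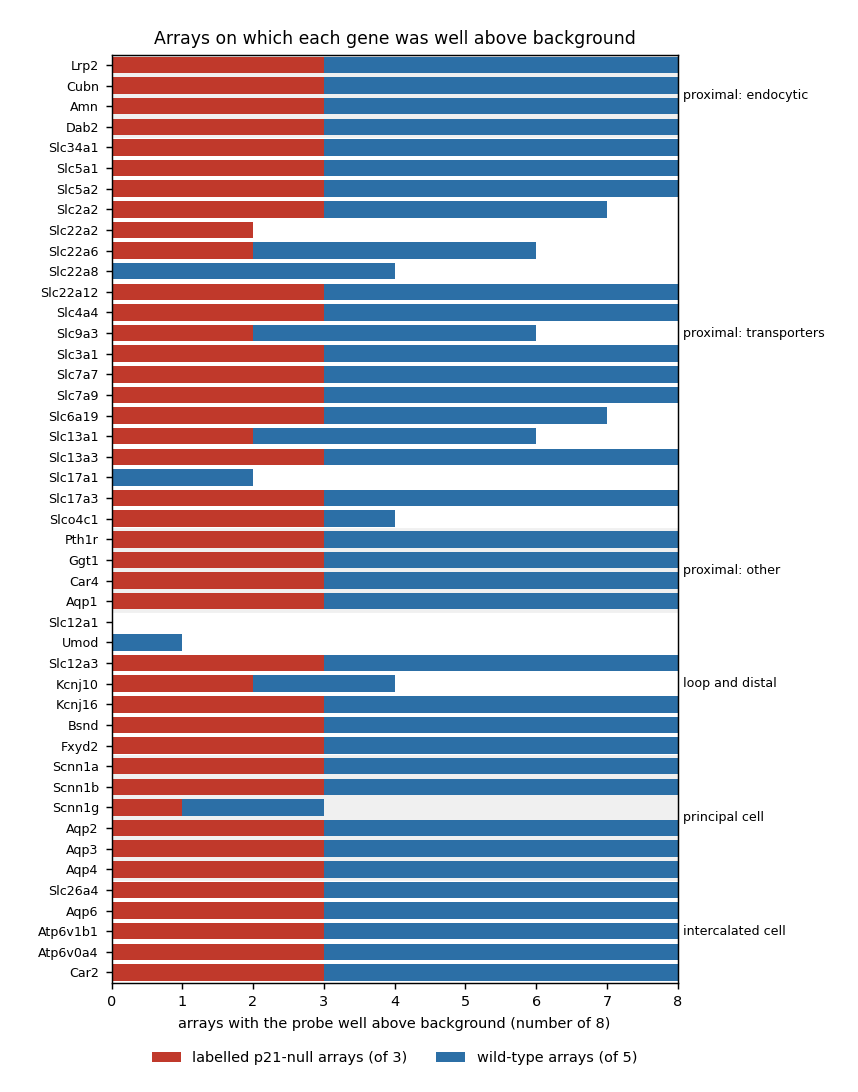
For each of the 45 genes, grouped by adult segment, bars show the number of arrays on which its brightest probe was well above background, with the 3 arrays labelled p21-null to the left of the 5 wild-type arrays. Slc12a1 has no bar and Umod reaches 1 array, Slc22a6 was measured on 6 arrays only, and 32 genes reach all 8.

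Between the groups, 7 of the 41 genes tested had an unadjusted p under 0.05 in limma, and none stayed under 0.05 after Benjamini-Hochberg adjustment over all 33598 features. Higher in the arrays labelled p21-null were the transporters Slc2a2, Slc17a3 and Slco4c1, the water channel Aqp1 and the carbonic anhydrase Car2. Lower were the adaptor Dab2 and the anion carrier Slc22a8. Slc22a8 passed the filter on dim probes through wild-type arrays alone, so its call is not independent of that selection. The 7 are 17.1% of those tested, against 10.1% of all features. By direction, 5 were higher (12.2%, against 6.21%) and 2 lower (4.88%, against 3.91%). Over the whole array 0 features passed that threshold (0.0%), with 0.148 as the lowest adjusted p. The 41 differences had a median of −0.23 on the log2 scale, against −0.03 over all features, and 17 of 41 were above 0 (41.5%, against 47.7%). The values of the 2 groups did not overlap for Slc2a2 and Slc17a3, which were higher (4.88% of 41, against 4.43% of all features), nor for Dab2, which was lower (2.44%, against 2.46%). The shares without overlap thus stood near those of all features. In bulk samples, fewer cells of a type and less RNA per cell cannot be told apart.

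**Figure D2:**
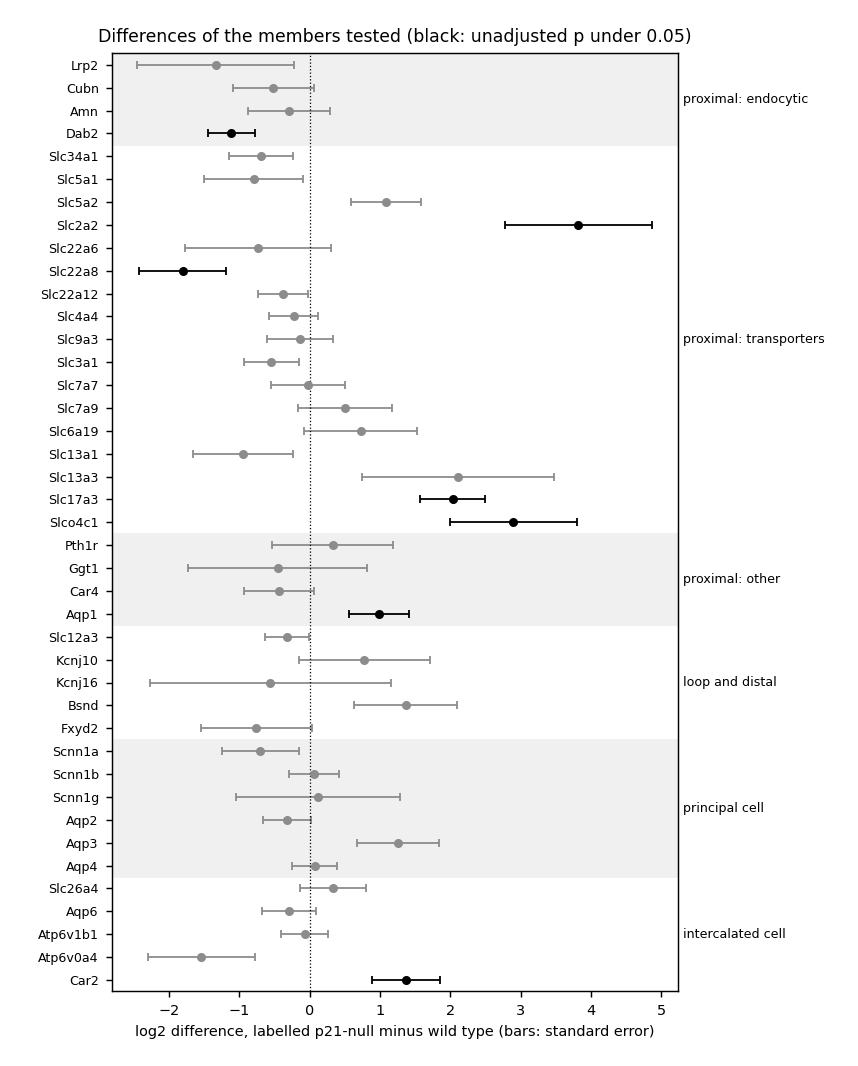
Points show the log2 difference, labelled p21-null minus wild type, of each of the 41 genes tested, and bars its standard error in limma, with genes grouped by adult segment. The 7 black points have an unadjusted p under 0.05; Slc2a2 lies farthest right at 3.82, and all 4 endocytic genes lie left of 0.

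The 4 genes of receptor-mediated endocytosis all had lower means in labelled p21-null arrays. Their median log2 difference was −0.82, and 1 of them, Dab2, had an unadjusted p under 0.05. Dab2 stood at 1.08, 1.37 and 0.84 in the arrays labelled p21-null, against 2.57, 2.30, 1.5, 2.52 and 2.16 in wild type. Every array labelled p21-null was below every wild-type array. The difference was −1.11 with a standard error of 0.33, or 2.16-fold lower (limma p = 0.0081, adjusted p = 0.321; exact permutation p = 0.0179, the smallest that 56 splits allow), and it was −1.04, −1.14 and −1.33 within slides 1, 2 and 3. With the mean of 15 liver markers, described with the transporters, as a covariate it was −0.85, with an unadjusted p above 0.05. Dab2 is also made by cells outside the tubule, such as macrophages; 9 of 11 listed macrophage markers had higher means in labelled p21-null arrays, with a summed level of 27.2 to 39.0 times the 75th percentile against 18 to 28.5 in wild type. The part of macrophage RNA in the difference was not tested.

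Megalin, encoded by Lrp2, divided the wild-type arrays instead of the groups. Its signal was −4.57, −4.21 and −3.66 in the arrays labelled p21-null, against −0.58, −4.75, −3.79, −0.26 and −4.65 in wild type. Wild-type replicates 1 and 4 stood more than 3 log2 units above every other array, and the remaining wild-type arrays overlapped with those labelled p21-null. The group difference was −1.34 (SE 1.11, limma adjusted p = 0.774). Within slides 1, 2 and 3 it was −1.53, −3.95 and 0.99. On slides 2 and 3 it rests on 1 array per group, so slide and sample cannot be told apart. Cubilin (Cubn) did not share that division, at −1.84, −4.07 and −2.74 in the arrays labelled p21-null, against −1.79, −3.61, −1.85, −2.28 and −2.27 in wild type. Its difference was −0.52 (SE 0.58; limma adjusted p = 0.840), and without labelled p21-null replicate 2 it was 0.07. With the mean of the liver markers as a covariate it was −1.75, with an unadjusted p under 0.05 but an adjusted limma p of 0.9998. Amnionless (Amn) had −2.78, −3.48 and −2.56 in the arrays labelled p21-null, against −1.98, −3.77, −3.70, −1.52 and −2.28 in wild type, where replicates 1 and 4 were again the highest (difference −0.29, SE 0.58, limma adjusted p = 0.923).

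Other genes of endocytosis on a longer list showed no common direction: 4 of 8 had higher and 4 lower means. Clcn5, the endosomal chloride-proton exchanger, differed by −0.83 and Myo6, the motor that moves endocytic vesicles inward, by −0.47 (limma adjusted p = 0.685 and 0.826).

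Among proximal transporters, 3 carriers stood higher in the arrays labelled p21-null: the glucose carrier Slc2a2, the organic anion and urate carrier Slc17a3, and the organic anion carrier Slco4c1. Of the 17 transporters tested, 7 had higher and 10 lower means, with a median difference of −0.14, so the class as a whole did not lie to 1 side. Slc2a2 had −0.51, −1.23 and −0.32 in the arrays labelled p21-null, against −4.82, −7.43, −3.23, −5.12 and −1.95 in wild type. Its lowest value, in wild-type replicate 2, was not above background, and no wild-type array reached the arrays labelled p21-null. The difference was 3.82 with a standard error of 1.05, or 14.2-fold (limma p = 0.0054, adjusted p = 0.299; exact permutation p = 0.0357). It was 4.65, 3.89 and 1.63 within slides 1, 2 and 3, 3.09 if wild-type replicate 2 was left out and 4.46 if replicate 5 was.

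Slc17a3 had −0.36, −1.19 and −0.71 in the arrays labelled p21-null, against −2.68, −3.72, −3.26, −2.58 and −1.70 in wild type. The groups did not overlap, and the gap between the nearest arrays was narrow beside the spread within wild type. The difference was 2.03 with a standard error of 0.46, or 4.10-fold (limma p = 0.0018, adjusted p = 0.282; exact permutation p = 0.0179). It was 2.86, 1.39 and 0.99 within slides, and a second probe gave 1.27.

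Slco4c1 had −5.48, −4.81 and −2.46 in the arrays labelled p21-null, each above background, and −7.89, −6.40, −7.99, −8.38 and −5.06 in wild type, where the last array alone was above background. The groups overlapped through that array. The 4 dim wild-type values were not above background, so the size of the difference is uncertain and no fold is given. In limma it was 2.90 with a standard error of 0.90 (limma p = 0.0106, adjusted p = 0.338; exact permutation p = 0.0536), and it was 3.51 when labelled p21-null replicate 1 was left out and 2.0, with an unadjusted p above 0.05, when replicate 3 was. Within slides it was 1.95, 3.57 and 2.60. The gene passed the filter of 3 arrays through the arrays labelled p21-null, so its p-values are not independent of that selection.

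Liver markers differed in the same direction as these carriers. Slc2a2 is also the main glucose carrier of hepatocytes, and all 15 listed liver genes, such as Alb, had higher means in the arrays labelled p21-null, 14 of them with an unadjusted p under 0.05. None was absent from any array, and their summed level was 167 to 371 times the array's 75th percentile in the arrays labelled p21-null, against 17.6 to 216 in wild type. The arrays kept nearly the same order for Slc2a2 as for the liver mean. Wild-type replicate 5, the wild-type array with the highest liver mean (3.26), had the highest wild-type Slc2a2, and wild-type replicate 2, with the lowest liver mean (−0.62), had the lowest. Slco4c1 did not keep that order: labelled p21-null replicate 1, with the highest liver mean (4.38), had the lowest Slco4c1 of its group (−5.48). Once the liver mean was a covariate in limma, the group difference was 0.46 for Slc2a2, 0.82 for Slc17a3 and 2.09 for Slco4c1, each with an unadjusted p above 0.05. The liver mean itself was 2.99 to 4.38 in the arrays labelled p21-null, against −0.62 to 3.26 in wild type, so the covariate and the group are partly the same measure. The part of liver RNA in these differences was not tested. The same covariate moved other genes away from 0: Bsnd to 2.34, Scnn1a to −1.63 and Car4 to −0.90, each with an unadjusted p above 0.05, against 1.37, −0.70 and −0.44 without it.

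**Figure D3:**
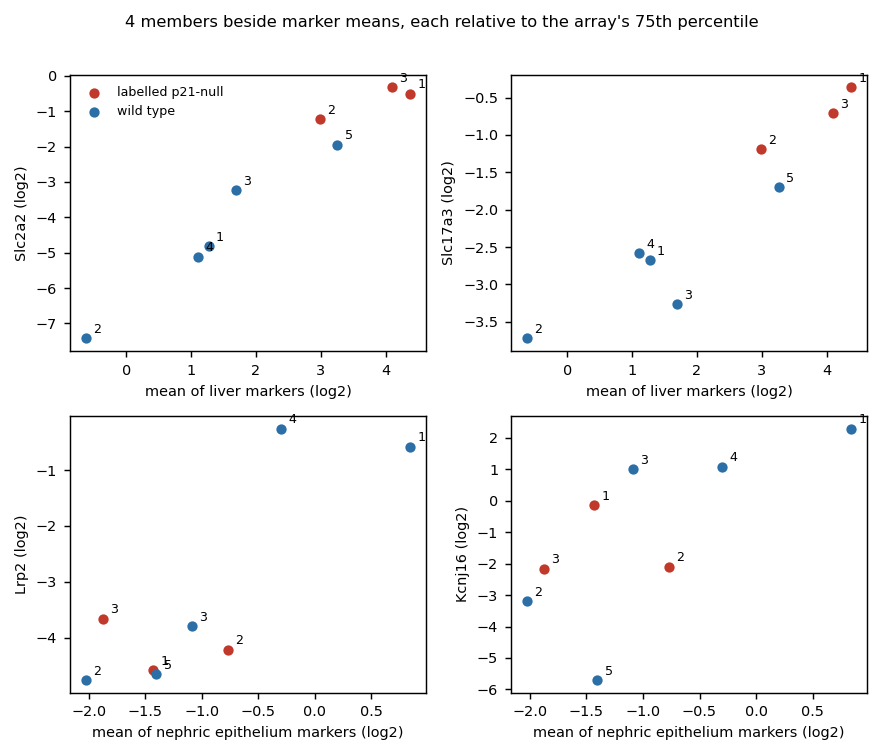
Each panel sets 1 gene's log2 signal on 8 arrays against the mean log2 signal of a marker list, with red points for labelled p21-null, blue for wild type, and replicate numbers beside the points. Slc2a2 and Slc17a3 climb with the liver mean, with wild-type replicate 5 the nearest to the red points; Lrp2 is high only in wild-type replicates 1 and 4, and Kcnj16 spreads from −5.70 to 2.29 within wild type.

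Slc22a8, which brings organic anions into the proximal cell, was the transporter that stood lower. It had −8.49, −7.73 and −6.17 in the arrays labelled p21-null, none above background, and −6.70, −5.50, −4.41, −5.85 and −5.82 in wild type, where all but the first were. The groups overlapped by that first array. The limma difference was −1.81 with a standard error of 0.62 (limma p = 0.0170, adjusted p = 0.382, exact permutation p = 0.0357). The gene passed the filter of 3 arrays through wild-type arrays alone, so these p-values are not independent of that selection. The probe was not well above background in any array labelled p21-null, so the size of the difference is uncertain. Taking for each such array the higher of its own signal and the lowest signal measured above background there, the wild-type mean was 1.19-fold higher. That value carries no sampling error, and the wild-type mean includes replicate 1, itself not above background, so it is not a lower limit. Without labelled p21-null replicate 1 the difference was −1.30, without replicate 2 −1.67, both with an unadjusted p above 0.05, and without replicate 3 −2.46. With the liver covariate it was −1.80, again with an unadjusted p above 0.05. Its neighbour on chromosome 19 and companion in anion secretion, Slc22a6, had −3.29 and −2.35 in 2 arrays labelled p21-null and −1.09, −3.99, −0.27 and −2.99 in 4 wild-type arrays; the spots on labelled p21-null replicate 1 and wild-type replicate 4 were marked as outliers and dropped from the fit. Its difference was −0.74 (SE 1.04; limma adjusted p = 0.887).

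The sodium-glucose carriers differed in opposite directions, and neither had an unadjusted p under 0.05. Slc5a2, the high-capacity carrier of the early proximal tubule, had 1.11, 0.43 and 1.39 in the arrays labelled p21-null, against 0.63, 0.02, −1.54, 0.34 and 0.01 in wild type (difference 1.08, SE 0.50, limma adjusted p = 0.519). Slc5a1, the high-affinity carrier further along, had −3.28, −4.06 and −3.57 in labelled p21-null arrays, against −0.78, −3.60, −2.65, −4.35 and −2.82 in wild type (difference −0.80, SE 0.71, limma adjusted p = 0.790). Slc34a1, the main phosphate carrier of the brush border, had −1.97, −1.98 and −1.26 in the arrays labelled p21-null, against −0.98, −1.55, 0.09, −0.91 and −1.87 in wild type, a difference of −0.69 (SE 0.46, limma adjusted p = 0.688). All these groups overlapped.

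The carriers of amino acids and of acids lay close to 0 or spread widely. The basolateral amino acid carrier subunit Slc7a7 differed by −0.02, Slc7a9 and Slc3a1, the subunits of the cystine carrier, by 0.50 and −0.55, and the neutral amino acid carrier Slc6a19 by 0.73, with limma adjusted p from 0.719 to 0.994. Slc4a4, which passes bicarbonate to the blood, and Slc9a3, the apical sodium-proton exchanger, differed by −0.23 and −0.14 (limma adjusted p = 0.896 and 0.960), and 1 of 2 other probes of Slc4a4 gave the opposite sign, at 0.20. The urate carrier Slc22a12 differed by −0.38 (limma adjusted p = 0.802). Slc13a3, a carrier of dicarboxylates such as succinate, ranged within both groups: 0.84, −3.24 and 0.13 in the arrays labelled p21-null, against −2.33, −5.87, −0.19, −4.46 and −1.48 in wild type (difference 2.11, SE 1.36, limma adjusted p = 0.679). Slc13a1, the sulfate carrier, had −5.57, −5.89 and −5.56 in the arrays labelled p21-null, against −4.34, −5.37, −6.28, −2.63 and −5.00 in wild type, with its 2 highest values in wild-type replicates 4 and 1 (difference −0.95, SE 0.71, limma adjusted p = 0.737).

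Of the other proximal genes, the water channel Aqp1 stood higher on average in the arrays labelled p21-null through 2 of the 3 arrays. It had 2.98, 1.40 and 3.28 there and 1.43, 1.88, 1.49, 1.37 and 1.67 in wild type. Labelled p21-null replicate 2 lay inside the narrow wild-type range and the other arrays above it. The difference was 0.99 with a standard error of 0.43, or 1.98-fold (limma p = 0.0487, adjusted p = 0.488; exact permutation p = 0.0893), and within slides it was 1.38, 0.03 and 1.61. Its unadjusted p was under 0.05 in 11 of 22 alternative analyses, among the single arrays left out for labelled p21-null replicate 2 alone, and without replicate 3 the difference was 0.62.

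Ggt1, the brush border enzyme that breaks down glutathione, had −1.85, −0.90 and −1.95 in the arrays labelled p21-null, against 1.81, −3.57, −0.37, 0.48 and −3.92 in wild type. The wild-type arrays thus lay on both sides of the others. Car4, the membrane-bound carbonic anhydrase, had 0.94, 0.37 and 0.81 in labelled p21-null arrays against 1.92, 1.18, 1.31, −0.32 and 1.62 in wild type, and Pth1r, the receptor for parathyroid hormone, had 0.69, −0.70 and 0.62 in labelled p21-null arrays against −0.24, 1.12, −2.80, 0.24 and 1.07 in wild type. Their differences were −0.44 (SE 0.49, limma adjusted p = 0.846) and 0.33 (SE 0.86, limma adjusted p = 0.946), and that of Pth1r was −0.34 without wild-type replicate 3.

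A longer list of 36 further proximal genes, of which 33 were tested, gave 19 higher and 14 lower means with a median difference of 0.08. Of these, 3 had an unadjusted p under 0.05 and were higher (9.09%, against 6.21% of all features), and 0 were lower (against 3.91%). Slc22a4, a carrier of ergothioneine and organic cations, had 0.83, 0.33 and 1.36 in the arrays labelled p21-null, against −1.52, −2.13, −1.80, −1.39 and −0.27 in wild type, without overlap (difference 2.26, SE 0.45, limma adjusted p = 0.282). Slc47a1, which extrudes organic cations at the brush border, had 0.07, −0.98 and −0.50 in labelled p21-null arrays against −1.38, −2.42, −2.17, −2.36 and −1.60 in wild type (difference 1.51, SE 0.38, limma adjusted p = 0.287). Slc27a2, which activates very long-chain fatty acids and is also abundant in liver, had 1.97, −0.03 and 1.48 in labelled p21-null arrays against −0.66, −3.22, −0.93, −0.72 and 1.05 in wild type (difference 2.04, SE 0.86, limma adjusted p = 0.468). The unadjusted p of Slc27a2 was above 0.05 when any array but replicate 5 of wild type or replicate 2 labelled p21-null was left out. With the liver covariate the differences of the 3 genes were 1.12, 0.87 and −0.71.

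No tested gene of the loop and distal tubule had an unadjusted p under 0.05 among the 5 tested, and 4 of the 5 had a standard deviation above 1 log2 unit within wild type. Kcnj16, a subunit of the basolateral potassium channel, had −0.14, −2.10 and −2.16 in the arrays labelled p21-null, against 2.29, −3.20, 1.0, 1.08 and −5.70 in wild type. Wild-type replicates 1, 3 and 4 were above every array labelled p21-null and the other wild-type arrays below. Its range within wild type was 7.99 log2 units, against a group difference of −0.56 (SE 1.72). Fxyd2, the gamma subunit of the sodium pump, gave the same arrangement on a smaller scale, at 0.14, −0.95 and −1.22 in the arrays labelled p21-null, against 1.87, −1.49, 0.61, 0.82 and −1.39 in wild type (difference −0.76, SE 0.80, limma adjusted p = 0.832).

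Bsnd, barttin, the subunit that chloride channels of the loop and distal tubule need, went the other way. It had 0.40, −1.53 and 0.59 in the arrays labelled p21-null, against −1.68, 0.43, −2.58, −1.86 and −2.04 in wild type, where replicate 2 stood among the highest arrays (difference 1.37, SE 0.73, limma adjusted p = 0.598). Slc12a3 varied little, at −3.30, −2.80 and −2.41 in the arrays labelled p21-null, against −2.87 to −2.09 in wild type (difference −0.32, SE 0.32, limma adjusted p = 0.811). Kcnj10, the partner channel of Kcnj16, was detected on 2 of 3 labelled p21-null and 2 of 5 wild-type arrays.

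Of 17 further genes of the loop and distal tubule, 13 were tested: 5 had higher and 8 lower means, with a median difference of −0.99, and 2 were lower with an unadjusted p under 0.05 (15.4%, against 3.91% of all features). Stk39, the kinase that activates the salt carriers of these segments, had −1.03, −0.72 and −1.89 in the arrays labelled p21-null, against 0.99, 0.69, 0.06, 1.24 and 0.25 in wild type, without overlap (difference −1.86, SE 0.40, limma adjusted p = 0.282). Trpm6, the magnesium channel of the distal convoluted tubule, had −4.30, −5.00 and −4.47 in labelled p21-null arrays against −2.25, −2.37, −2.11, −3.99 and −3.39 in wild type, also without overlap (difference −1.77, SE 0.48, limma adjusted p = 0.297). Slc8a1, the sodium-calcium exchanger, differed by −0.99 (SE 0.48, limma adjusted p = 0.541). The kinase Stk39 and the exchanger Slc8a1 are also expressed in neural tissue, and 11 of 12 listed neural markers had lower means in labelled p21-null arrays, with a summed level of 9.99 to 10.4 times the 75th percentile against 16.9 to 72.6 in wild type. The part of neural RNA in these differences was not tested.

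In principal cells of the collecting duct, which take up sodium through the epithelial channel and water through aquaporins, 4 of 6 means were higher and 2 lower, and none had an unadjusted p under 0.05. Aqp3, the basolateral water and glycerol channel, came nearest, with −2.25, −0.31 and −1.11 in the arrays labelled p21-null, against −1.30, −2.93, −1.87, −3.07 and −3.26 in wild type. The groups overlapped through labelled p21-null replicate 1. The difference was 1.26 with a standard error of 0.58 (limma p = 0.0587, adjusted p = 0.518; exact permutation p = 0.125), and within slides it was −0.21, 2.75 and 2.15. Aqp2, the water channel that vasopressin sends to the apical membrane, had −2.39, −2.04 and −1.92 in the arrays labelled p21-null, against −2.57 to −1.33 in wild type (difference −0.32, SE 0.34, limma adjusted p = 0.837).

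The 3 subunits of the epithelial sodium channel did not move as 1. Scnn1a had −3.91, −3.63 and −2.51 in the arrays labelled p21-null, against −2.39, −3.93, −1.50, −2.87 and −2.55 in wild type (difference −0.70, SE 0.55, limma adjusted p = 0.755). Scnn1b differed by 0.06 (SE 0.35), and Scnn1g was detected on 1 of 3 labelled p21-null and 2 of 5 wild-type arrays, with its highest signal, −3.41, in wild-type replicate 4. Aqp4, a basolateral water channel, differed by 0.07 on the probe used and by −0.42 on a second probe, which was above background on 3 arrays.

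Intercalated cells secrete acid or base by means of a proton pump and carbonic anhydrase. Among the 5 genes, 2 means were higher and 3 lower, and Car2 alone had an unadjusted p under 0.05. Car2, the cytosolic carbonic anhydrase, had 3.97, 3.51 and 4.12 in the arrays labelled p21-null, against 3.57, 1.38, 2.73, 2.0 and 2.84 in wild type. Wild-type replicate 1 fell among the arrays labelled p21-null and the other wild-type arrays lay below. The difference was 1.37 with a standard error of 0.48, or 2.58-fold (limma p = 0.0202, adjusted p = 0.392; exact permutation p = 0.0714), and it was 1.41, 1.52 and 1.28 within slides. When labelled p21-null replicate 1 or 3 was left out it was 1.31 or 1.24, with an unadjusted p above 0.05.

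Car2 and Aqp1 are also genes of red cells. Of 13 red cell markers, 12 had higher means in the arrays labelled p21-null, 11 with an unadjusted p under 0.05. The mean log2 level of the markers was 2.92 to 3.82 in the arrays labelled p21-null, against 0.22 to 2.57 in wild type. Aqp1 did not follow it on every array: labelled p21-null replicate 2, with a marker mean of 2.92, had an Aqp1 signal of 1.40, inside the wild-type range. The summed level of the markers was 254 to 340 times the 75th percentile in the arrays labelled p21-null, against 139 to 228 in wild type, and no marker was absent from any array. The sum leans on the brightest marker, Hemgn, which stood at 6.63 to 7.39 over the arrays and differed by −0.08. With the liver covariate the difference of Car2 was 0.40 and that of Aqp1 0.70. No covariate of red cell markers was fitted, and the part of red cell RNA itself in these differences was not tested.

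Of the 2 proton pump subunits among these 5 genes, neither had a higher mean. Atp6v0a4, a pump subunit of such cells, had −5.51, −3.48 and −3.93 in the arrays labelled p21-null, against −1.47, −1.87, −4.08, −2.20 and −4.23 in wild type. Its difference was −1.54 (SE 0.76, limma adjusted p = 0.558), and it was 0.30 with the liver mean as a covariate. Atp6v1b1 differed by −0.07 (SE 0.33, limma adjusted p = 0.971). Slc26a4, pendrin, the chloride-bicarbonate exchanger of base-secreting cells, differed by 0.33 (SE 0.47). Aqp6, an anion-permeable channel of intracellular vesicles, had −2.67, −1.78 and −1.33 in the arrays labelled p21-null, against −1.58, −1.44, −2.36, −1.40 and −1.41 in wild type (difference −0.29, SE 0.39, limma adjusted p = 0.878), and its second probe gave 0.39.

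Of 15 further genes of the collecting duct, 14 were tested, with 6 higher and 8 lower means and a median difference of −0.07, and 2 were higher with an unadjusted p under 0.05 (14.3%, against 6.21% of all features). Slc4a1, the anion exchanger of acid-secreting cells and of red cells, had 5.78, 5.05 and 5.91 in the arrays labelled p21-null, against 3.93, 2.13, 4.04, 3.16 and 4.50 in wild type (difference 2.03, SE 0.53, limma adjusted p = 0.291); it was also counted among the red cell markers above. Atp6v0d2, a proton pump subunit also made by osteoclasts and macrophages, had 1.27, −4.38 and −0.13 in the arrays labelled p21-null, against −4.90 to −3.11 in wild type (difference 2.90, SE 1.09, limma adjusted p = 0.412). Labelled p21-null replicate 2 lay within the wild-type range; without it the difference was 4.55, and without replicate 1 it was 1.72. Its unadjusted p was above 0.05 without labelled p21-null replicate 1, replicate 3 or wild-type replicate 5. The ammonia channel Rhbg differed by 1.23 (SE 0.72, limma adjusted p = 0.640).

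**Figure D4:**
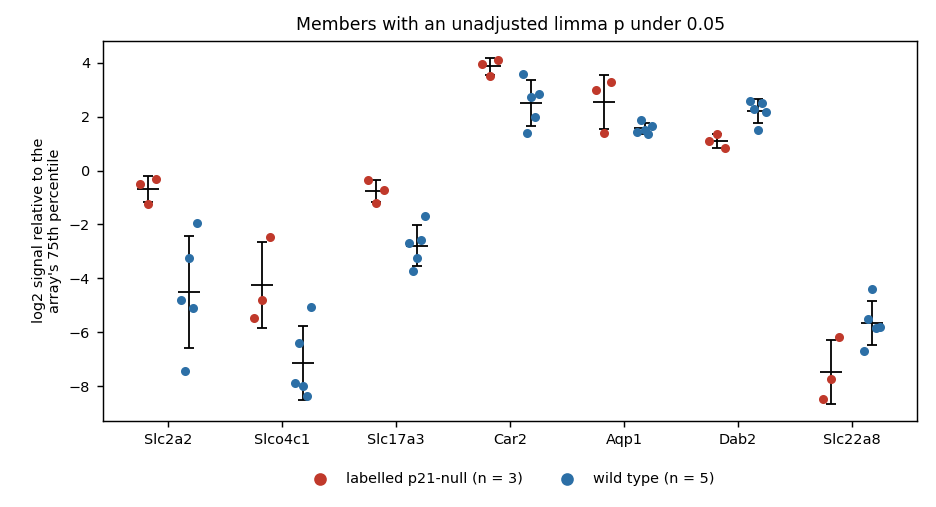
Points are single arrays for the 7 genes with an unadjusted p under 0.05, on the vertical axis as log2 signal relative to the array's 75th percentile, with red for labelled p21-null (n = 3) left of blue for wild type (n = 5), and bars for mean and SD. The groups are apart for Slc2a2, Slc17a3 and Dab2 and overlap for Slco4c1, Car2, Aqp1 and Slc22a8.

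Much of the variation in these genes lay within wild type. The standard deviation over the 5 wild-type arrays was above 1 log2 unit for 18 of 41 genes (43.9%), against 22.1% of all features, and its median was 0.87 against 0.61. By segment this held for 12 of 25 proximal genes, 4 of 5 loop and distal genes, 1 of 6 principal cell genes and 1 of 5 intercalated cell genes. Some of the 18 had wild-type values not above background, where log2 signals have little precision. Slco4c1 was above it on 1 of 5 wild-type arrays, and Kcnj10 and Scnn1g each on 2 of 5. Wild-type replicates 1 and 4 were the 2 highest of all arrays for Lrp2, Amn, Dab2, Slc13a1, Ggt1, Kcnj16 and Fxyd2, which are 7 of 41 (17.1%, against 3.49% of all features). Wild-type replicates 1, 3 and 4 were the 3 highest for Slc34a1, Ggt1, Kcnj16 and Fxyd2 (9.76%, against 3.59%). Both sets of arrays were named with earlier results of these data known, so the excess over all features is partly fixed by that choice.

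As a mean, the general markers of nephric epithelium varied along with them, though not every marker did. Their mean was −1.43, −0.77 and −1.88 in the arrays labelled p21-null, against 0.84, −2.03, −1.09, −0.30 and −1.40 in wild type, highest in wild-type replicates 1 and 4. Cdh16, a cadherin of kidney tubules, had 0.67, 0.19 and −0.26 in the arrays labelled p21-null, against 2.23, −0.64, 1.79, 1.84 and −0.53 in wild type, so replicates 1, 3 and 4 were its highest arrays. Pax2 and Cdh1 did not follow replicate 4. There Pax2 was 0.07, its lowest wild-type value, and Cdh1 was −3.62, below every array labelled p21-null. The summed level of all 13 markers was 11.1 to 15.9 times the 75th percentile in the arrays labelled p21-null, against 10.0 to 39.8 in wild type. With their mean as a covariate the difference of Lrp2 was −0.47 and that of Fxyd2 −0.14, whereas that of Dab2 was −0.99, that of Slc2a2 3.86 and that of Slc17a3 2.10. Their part in the spread of the other genes was not tested. Wild-type replicates 1 and 3 shared slide 1 with replicate 2, where Lrp2, Ggt1 and Kcnj16 were low.

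**Figure D5:**
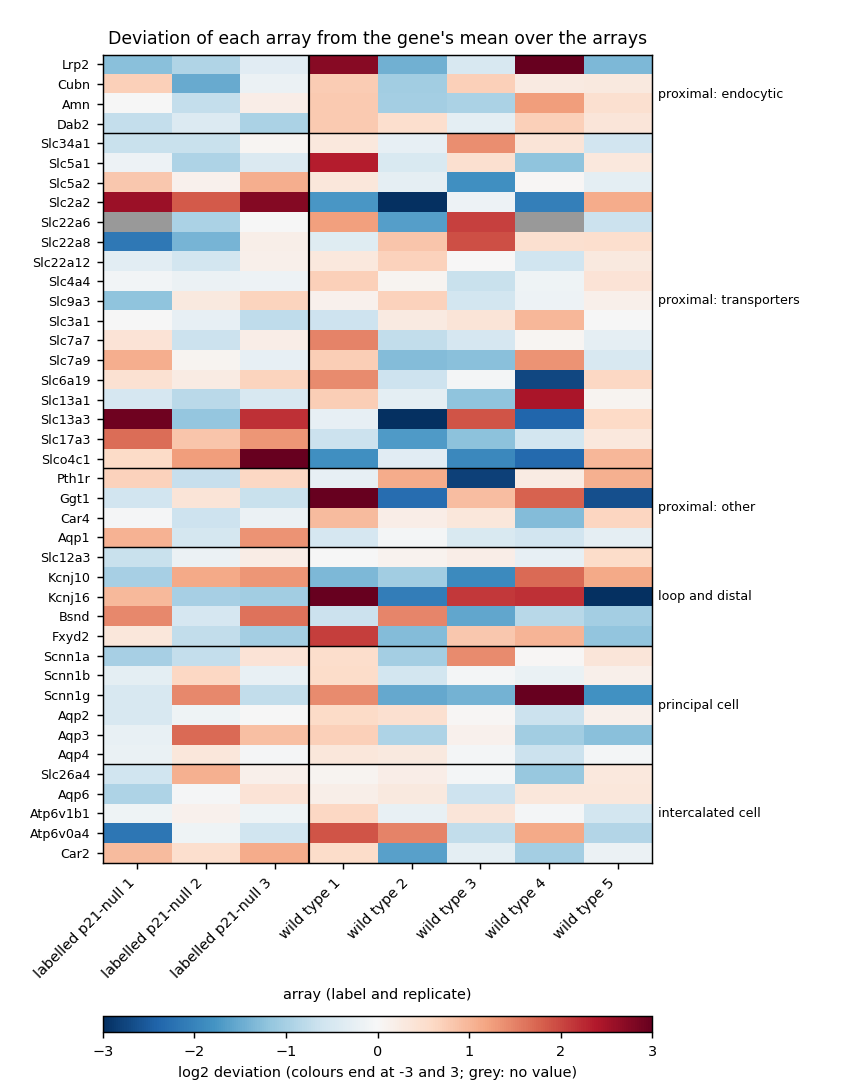
Rows are the 41 genes tested, grouped by adult segment, and columns the arrays, with the 3 labelled p21-null arrays to the left of the line; colour gives each array's log2 deviation from the gene's mean over the arrays. Wild-type replicates 1 and 4 are red for Lrp2, Ggt1 and Kcnj16, the arrays labelled p21-null are red for Slc2a2 and Slc17a3, and no column is of 1 colour throughout.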

How the data were processed

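RNA of 8 samples (3 labelled p21-null, 5 wild type) was read on 1-colour arrays. Scanner files were deposited with linear intensities from Feature Extraction 10.7.3.1 (Agilent), per the file headers, the processed intensity already corrected for background; they were not normalized between arrays. A table of log2 values deposited by the authors, for which the submitters' processing notes name limma, correlated at 0.999956 or more with normexp-corrected, quantile-normalized intensities, and served as an alternative only; no direction or centring stayed unknown. Accessions were matched to RefSeq (GRCm38.p6), which named 26050 of 55681 probes and left 29631 unnamed. The log2 processed intensity minus the 75th percentile of the array was used; control spots and spots marked as outliers were left out, spots of a probe averaged, and probes kept if well above background on 3 of 8 arrays (50046) with a value on 6. The brightest probe stood for a gene.

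Groups were compared over all 33598 features with limma 3.58.1 in R 4.3.3 (lmFit, eBayes, no covariate) and Benjamini-Hochberg adjustment at 0.05, and single values by two-sided exact permutation of 56 splits. The number of arrays limits the precision. Every gene of the list could be named; full statistics went to those with an unadjusted p under 0.05 and the 3 of smallest p per class and per further list, some others being given for their role or spread; some genes the rule names are not reported here. The members, lists and tests were chosen with earlier results of these data known. Slides were taken from the array identifiers. Same-numbered arrays did not deviate together (correlations 0.01, −0.05 and −0.04), so numbers were not taken as pairs. The fit was tested on simulated data. Alternatives covered scaling, background correction, filters, slide and replicate block, probe choice, moderation, array weights, the deposited table, marker covariates and leaving out each array.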

Additional observations from a re-analysis of the deposited data

Results flagged for a closer look

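In 2 of the 31 genes with full statistics, 1 of the 5 wild-type arrays stood apart from the other 4 by Dixon's criterion, which chance meets in about 1 in 20 groups. Cubn, cubilin, had −3.61 in wild-type replicate 2, below the −2.28 to −1.79 of the other wild-type arrays (gap over range 0.73, critical value 0.71). Aqp6 had −2.36 in wild-type replicate 3, below −1.58 to −1.40 (gap over range 0.81).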

How the results depend on the processing

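Of 679 values of 31 genes under 22 alternatives, 673 kept the sign and 6 reversed it: Cubn without labelled p21-null replicate 2 (0.0721; left out singly, arrays gave −1.04 to 0.0721), Pth1r without wild-type replicate 3 (range −0.34 to 0.78), Atp6v0a4 (0.30) and Slc27a2 (−0.71) with the liver mean as a covariate, and Aqp6 with the mean of its probes (0.0490) and without labelled p21-null replicate 1 (range −0.59 to 0.0788). Unadjusted p stayed under 0.05 in 21 of 22 alternatives for Dab2 and Slc17a3, 20 of 21 for Slc2a2, 19 of 21 for Slco4c1, 19 of 22 for Car2, 15 of 21 for Slc22a8 and 11 of 22 for Aqp1. Features with an adjusted p under 0.05 numbered 3 with normexp, 8 with array weights (which gave labelled p21-null replicate 3 a weight of 3.04, the others 0.56 to 1.28) and 0 to 1 when single arrays were left out, the 1 without wild-type replicate 4. Genes of the list higher with an unadjusted p under 0.05 numbered 8 with array weights, 0 with the liver covariate and 2 to 8 when single arrays were left out (8 without labelled p21-null replicate 2, 2 without replicate 3). Lower ones numbered 1 with normexp, with the filter of 8 arrays, with array weights, with the deposited table and with the liver covariate, and 1 to 3 when single arrays were left out (1 without labelled p21-null replicate 1 or 2). The median of the loop and distal genes was 0.19 with the liver covariate, 0.60 with the nephric epithelium covariate and −0.33 to 0.24 when single arrays were left out (0.24 without wild-type replicate 1). The cause of these shifts was not tested. With the replicate block, 6 genes were higher and 2 lower, with differences of −1.03 for Dab2 and 4.47 for Slc2a2, while that of Aqp1, 0.95, no longer had an unadjusted p under 0.05. Signals at or below background, as for Slc22a8 and Slco4c1, have little precision.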

Other observations

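Other cell types also differed in their marker lists. Podocyte markers, of the glomerular filter, were above background on all 8 arrays for 8 of 8 genes, against 78.8% of all named genes. They had 3 higher and 5 lower means. Their summed level was 16.5 to 28.0 times the 75th percentile in the arrays labelled p21-null against 13.8 to 33.1 in wild type. Stromal markers had 3 higher and 9 lower means (summed 47.2 to 153 against 63.8 to 167), and endothelial markers 8 higher and 2 lower (11.6 to 21.2 against 10.2 to 22.8). The ranges of the 2 groups overlapped for all 3 lists, and 1 podocyte marker in each direction, 1 stromal marker (lower) and 0 endothelial markers had an unadjusted limma p under 0.05. Csf1r, the receptor that macrophages need, differed by −0.26 (limma adjusted p = 0.825), whereas 6 other macrophage markers were higher with an unadjusted p under 0.05.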
